A study of Mus musculus with 15 samples.

Results

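The 10 genes described here move organic osmolytes across the plasma membrane or control cell volume, and they were chosen by name out of the 56832 genes of the count table. They are the osmolyte carriers Slc5a3, Slc6a12 and Slc38a2, the transcription factor Nfat5, the kinase Sgk1, and the 5 LRRC8 channel subunits Lrrc8a, Lrrc8b, Lrrc8c, Lrrc8d and Lrrc8e. They were measured by bulk RNA-sequencing of mesenchymal stromal cells (MSCs) cultured from the long bones of 16 week old mice on a C57BL/6J background. The mice carried either the intact taurine transporter gene Slc6a6 (TauT+/+) or its knockout (TauT-/-). The 15 libraries fall into 4 groups, with 4 labelled male TauT+/+, 4 male TauT-/-, 3 female TauT+/+ and 4 female TauT-/-. All cultures were grown in MEM α with 15% foetal bovine serum at 2% oxygen, and were depleted of CD45, Ter119 and CD31 positive cells. The comparison asks how the osmolyte carriers and volume-regulating genes are expressed in MSCs that lack the taurine transporter.

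Taurine, myo-inositol and betaine are organic osmolytes, small molecules that cells collect or release to change their volume without disturbing proteins. Sodium-coupled carriers bring them in, and the transcription factor NFAT5 (TonEBP), which responds to high tonicity, is known to switch on the genes of several of these carriers, among them Slc6a6, Slc5a3 and Slc6a12. When a cell swells, volume-regulated anion channels built of LRRC8A with other LRRC8 subunits open and let chloride, taurine and other osmolytes leave.

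Values are given as CPM, the counts on a gene per 1000000 counts of the library, with library sizes scaled by the TMM method. A log2 fold change (log2FC) is TauT-/- against TauT+/+, so that negative values are lower in TauT-/-, and its standard error (SE) follows it. Unless stated otherwise the test is edgeR's quasi-likelihood test of genotype, with the labelled sex as a second term, on all 15 libraries, and the adjusted p covers all 17204 genes that passed the filter on low counts. The edgeR test reports no SE, so its SE was derived as the size of the log2FC over the square root of the test's F statistic. A gene is called when its adjusted p is below 0.05. DESeq2 on the same model is given as the alternative where it changed a call. In such bulk libraries, fewer cells of a type and less RNA per cell cannot be told apart. Where nothing says that libraries came from separate animals, the p-values measure only the spread between these libraries.

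Several facts of the libraries touch the results. Total counts were 69764291 to 101575071 under the male label and 12761107 to 20781070 under the female label, so that depth and labelled sex cannot be told apart. The sex-linked genes of 3 libraries did not match their sex label. Replicate 1 of the male and of the female label were nearly identical within each genotype, with a spread of their log2 ratio over genes of 0.104 in TauT-/- and 0.115 in TauT+/+, against 0.289 for the next closest pair and about 0.06 from counting alone (0.0601 and 0.0627). Results are therefore also given for 13 libraries, without the male-labelled replicate 1 of each genotype. The targeted gene itself, Slc6a6, was not absent from the TauT-/- libraries. It ranged from 592 to 2591 CPM in TauT+/+ and from 401 to 1521 CPM in TauT-/-, and its log2FC of -0.97 (SE 0.36) was not called (adjusted p = 0.125). Counts over the whole gene do not show which part of it the knockout allele removed, and the allele is not described in the sources used here. The labelled cell type was checked against its markers. Col1a1, the main collagen of bone, averaged 12880 CPM in TauT+/+ and 8043 CPM in TauT-/-, while Lepr, a marker of marrow MSCs in vivo, averaged 0.99 and 0.95 CPM. The leukocyte gene Ptprc (CD45) was present at 123 and 234 CPM in spite of the depletion.

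The promoters of the 2 carriers that differed most are shown first, as the 250 bases before the start annotated by RefSeq on GRCm38.p6, 5′ to 3′ on the gene's strand. Capitals mark TGGAAA, the 6-base core bound by NFAT5 and other Rel family factors. The Slc5a3 window (chr16:92058072-92058321, plus strand) has a GC content of 74.8%, and it also lies before the start of the neighbouring gene Mrps6, which is annotated 14 bases downstream. The Slc6a12 window (chr6:121342324-121342573, plus strand) belongs to the first of 5 annotated starts and has a GC content of 55.6%.

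Slc5a3: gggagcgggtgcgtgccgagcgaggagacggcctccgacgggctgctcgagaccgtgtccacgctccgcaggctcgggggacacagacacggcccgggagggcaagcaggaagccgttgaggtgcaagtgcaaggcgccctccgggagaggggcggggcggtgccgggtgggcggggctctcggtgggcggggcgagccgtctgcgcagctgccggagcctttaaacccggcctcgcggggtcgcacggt

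Slc6a12: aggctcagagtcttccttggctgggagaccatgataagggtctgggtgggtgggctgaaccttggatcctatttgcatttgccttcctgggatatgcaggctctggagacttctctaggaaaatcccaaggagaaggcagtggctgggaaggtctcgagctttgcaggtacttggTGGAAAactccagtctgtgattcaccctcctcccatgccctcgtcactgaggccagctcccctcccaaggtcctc

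On both strands, TGGAAA occurred once in this Slc6a12 window and not in that of Slc5a3, and 18.6% of all 32851 promoter windows of this length hold it. Over all 10 genes, which have 20 annotated windows, 3 windows held it, the one of Slc6a12 and 2 of the 6 of Sgk1. The longer tonicity-responsive enhancer (TonE) consensus was searched as this core with C or T at the third and the fifth base after it. It was in 1 of the 20 windows, at the capitals of the Slc6a12 window shown, and in 4.3% of all promoters. These are matches of letters within a short window and say nothing of binding.

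Among the 10 genes, Slc5a3 was lower in TauT-/- MSCs and was the only one called by edgeR, a call that held in 3 of 15 fits without 1 library and not with 13 libraries. Slc6a12 had the largest difference in the other direction, and was called by DESeq2, which called 5.53% of its tested genes higher and 6.5% lower, but not by edgeR. Nfat5 and Lrrc8a had log2FC close to 0, and the log2FC of the other 6 genes were between -0.25 and 0.75. All 10 passed the filter on low counts, with 1 lower and 0 higher, beside 0.75% of all genes called lower and 0.546% called higher. At an unadjusted p under 0.05, 3 of the 10 passed, beside 23.6% of all genes. The genotypes overlapped in every one of the 10. The share of all genes that overlap in this way is not given here, so this is no trait particular to the 10. The median log2FC was 0.38 over the 10 genes and -0.02 over all genes, and 6 of the 10 lay above 0 and 4 below.

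**Figure D1:**
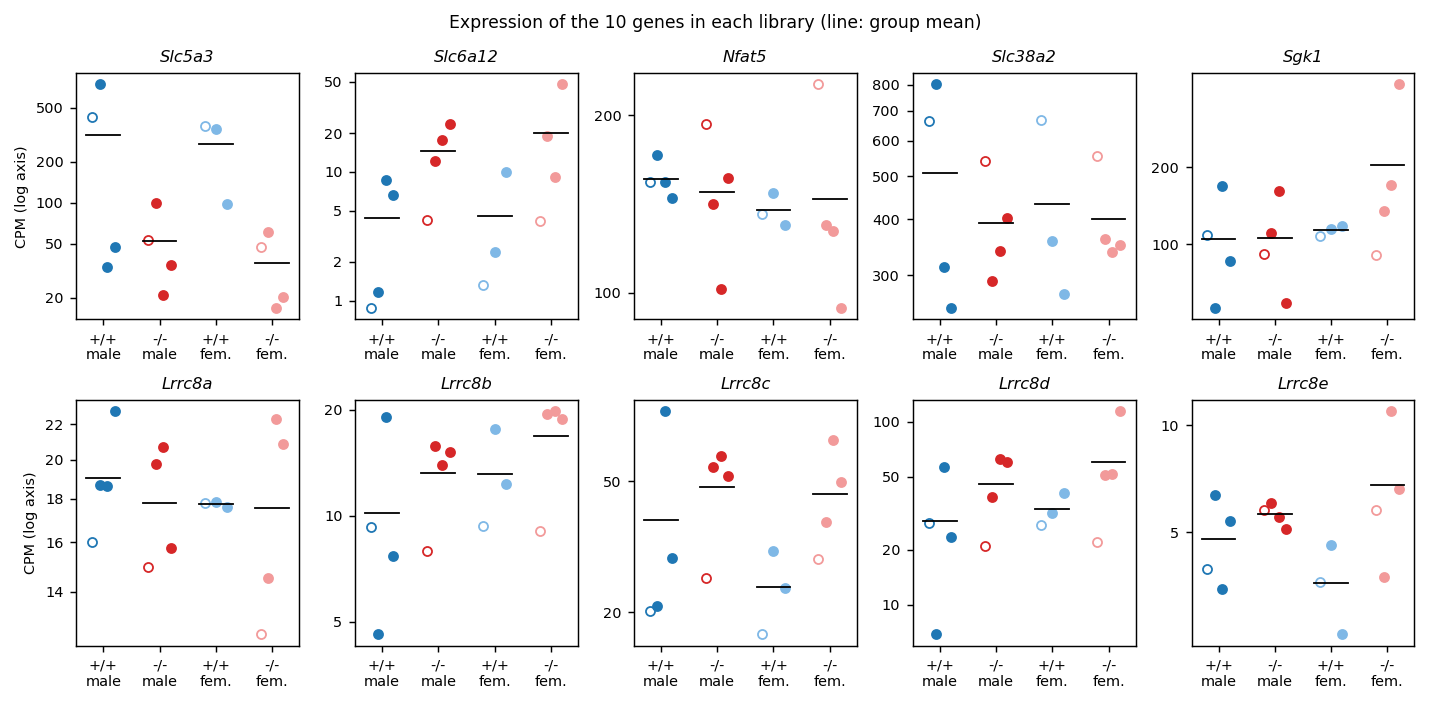
CPM (log axis) of each of the 10 genes by genotype and labelled sex, with 1 point per library, a line at the group mean, and open points for replicate 1 of each group. In Slc5a3 the TauT-/- libraries end at 100.4 CPM while 4 TauT+/+ libraries lie at 348 CPM or above, and in Slc6a12 5 TauT-/- libraries lie above every TauT+/+ library.

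Levels were also expressed per kilobase of exon, to set genes of different length side by side. The lengths hold all exons annotated in GENCODE M39, without bases shared on the same strand, while counting used GENCODE M31. The order of the genes depends on these lengths. On this scale Slc38a2 stood highest in TauT+/+ MSCs with 49.1 ± 23.4 CPM per kb (SD, n = 7). It was followed by Slc5a3 with 27.5 ± 23.9, Sgk1 with 18.0 ± 5.65 and Nfat5 with 8.003 ± 0.723 CPM per kb. The LRRC8 subunits and Slc6a12 lay below, with Lrrc8a at 3.94, Lrrc8c at 3.796, Lrrc8d at 2.17, Lrrc8b at 1.68, Slc6a12 at 1.46 and Lrrc8e at 0.95 CPM per kb. Neighbours in this order overlapped between libraries, except Sgk1 (lowest library 9.36) with Nfat5 (highest library 9.23), and Nfat5 (lowest library 7.03) with Lrrc8a (highest library 4.87). In TauT-/- MSCs the mean level of Slc5a3 was 4.12 ± 2.60 CPM per kb (n = 8) and that of Slc6a12 was 5.64 ± 4.64 CPM per kb.

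Slc5a3 encodes SMIT1, the sodium-coupled carrier of myo-inositol. The gene (ENSMUSG00000089774) lies at chr16:91854965-91884361 on the plus strand of GRCm39. In the TauT+/+ libraries labelled male 1 to 4 it measured 427, 745, 33.9 and 47.4 CPM, and in female 1 to 3 it measured 366, 348 and 98.3 CPM. In TauT-/- it measured 53.3, 100.4, 20.9 and 34.8 CPM in male 1 to 4, and 47.3, 60.5, 16.7 and 20.3 CPM in female 1 to 4. The TauT+/+ libraries thus spread widely, with male 3, male 4 and female 3 within the TauT-/- range. Of the 8 TauT-/- libraries, 3 lay below every TauT+/+ library and 8 below the TauT+/+ median.

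The mean of Slc5a3 was 295 ± 257 CPM (SD, n = 7) in TauT+/+ and 44.3 ± 28.0 CPM (n = 8) in TauT-/-, with a log2FC of -2.73 (SE 0.63, adjusted p = 0.0495 by edgeR). This is 6.64-fold lower in TauT-/-, and 2 SE to either side span 2.77-fold to 15.9-fold. In the order of log2FC over all tested genes it was the 83rd lowest. DESeq2 called it with a log2FC of -2.72 and an adjusted p of 0.000427. In edgeR the call lay close to the threshold, and its size changed less than its p. With 13 libraries the log2FC was -2.68 and the adjusted p was 0.0901. Leaving out single libraries gave log2FC from -3.01 to -2.32, and the call held in 3 of these 15 fits, those without TauT+/+ male 3, TauT+/+ male 4 or TauT-/- male 2. In the other 12 the adjusted p was 0.0539 to 0.114, the highest without TauT+/+ female 2.

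The lower level of Slc5a3 was seen under both sex labels, with a log2FC of -2.58 (SE 0.90) under the male and -2.90 (SE 0.95) under the female label. Neither was called by edgeR within its label (adjusted p = 0.570 and 0.251). DESeq2 called Slc5a3 under the female label (adjusted p = 0.0492), where it called 1.29% of its tested genes lower. The difference between the labels was -0.32 (SE 1.25), and no difference was called (adjusted p = 0.9999). For none of the 10 genes did this difference pass, also at an unadjusted p under 0.05. Within a label edgeR called 0 of 17204 genes. At an unadjusted p under 0.05 there were 1483 of 17204 under the male label (1 of the 10 genes, Slc5a3). Under the female label there were 2518 of 17204 (2 of the 10, Slc5a3 and Lrrc8e). DESeq2 called 76 of 16295 tested genes (0.466%) under the male label and 410 (2.52%) under the female label. For the difference it called 2 of 32917. Replicate 1 was nearly identical under both labels, so that the labels are not separate evidence. With 13 libraries the log2FC of Slc5a3 was -2.42 under the male and -2.90 under the female label. The unadjusted p by edgeR was 0.0509 and 0.0154. That fit tested 14360 genes. Of these 1261 had an unadjusted p under 0.05 under the male label (0 of the 10) and 2039 under the female label (3 of the 10).

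The first exon of Slc5a3 (chr16:91854965-91855368, 404 bases) is also the first exon of Mrps6, a mitochondrial ribosomal protein gene on the same strand, and of the predicted gene Gm49711. The second exon of Slc5a3 (chr16:91873608-91884361, 10754 bases) lies within the span of Mrps6. Reads in the shared exon cannot be assigned to either gene, and the shared 404 bases were left out of the length used for CPM per kb. Mrps6 measured 90.7, 114, 12.5 and 15.6 CPM in TauT+/+ male 1 to 4 and 89.7, 63.5 and 35.4 CPM in female 1 to 3. The TauT-/- values of Mrps6 were 18.3, 35.2, 11.2 and 11.6 CPM in male 1 to 4 and 16.5, 17.1, 10.4 and 9.38 CPM in female 1 to 4. The libraries high in Slc5a3 were also the ones high in Mrps6. The log2FC of Mrps6 was -1.90 (SE 0.46), which edgeR did not call (adjusted p = 0.0561) and DESeq2 did (adjusted p = 0.00217).

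The log2 ratio of Slc5a3 to Mrps6, with 0.5 CPM added to both, was chosen after the values were seen and is given as a description only. It was 1.98 ± 0.51 (SD, n = 7) in TauT+/+ and 1.31 ± 0.39 (n = 8) in TauT-/-. The difference was -0.67, and -0.66 with 13 libraries. The 2 genotypes overlapped, from 1.40 to 2.71 in TauT+/+ and from 0.66 to 1.80 in TauT-/-.

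Against the other genes over 13 libraries, Spearman's correlation of log2 CPM with Slc5a3 was highest for Mrps6 (0.978) and Ap3m2 (0.978), an adaptor complex subunit, among 10911 genes with a mean of at least 5 CPM. St6galnac6 (0.962), a sialyltransferase, Extl2 (0.951), a glycosyltransferase, and Plpp3 (0.945), a lipid phosphate phosphatase, came next. Slc6a6 stood at rank 1521 with 0.582, and Slc6a12 had a correlation of -0.61. These correlations mix both genotypes and describe these libraries only.

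Within TauT+/+, male 3, male 4 and female 3 were the lowest of the 7 libraries in Slc5a3 and in Mrps6. They were also the lowest in Slc6a6 (830, 592 and 1289 CPM) and in Slc38a2 (314, 253 and 272 CPM), and the highest in Slc6a12 (8.69, 6.64 and 10.0 CPM). Within TauT-/-, female 3, female 4, male 3 and male 4 were the lowest of the 8 libraries in both Slc5a3 and Mrps6. Slc6a6 did not follow Slc5a3 there. TauT-/- female 4 was the highest in Slc6a6 (1521 CPM) and had 20.3 CPM of Slc5a3, while TauT-/- male 1 and female 1 were the lowest in Slc6a6 (404 and 401 CPM) and had 53.3 and 47.3 CPM of Slc5a3.

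**Figure D2:**
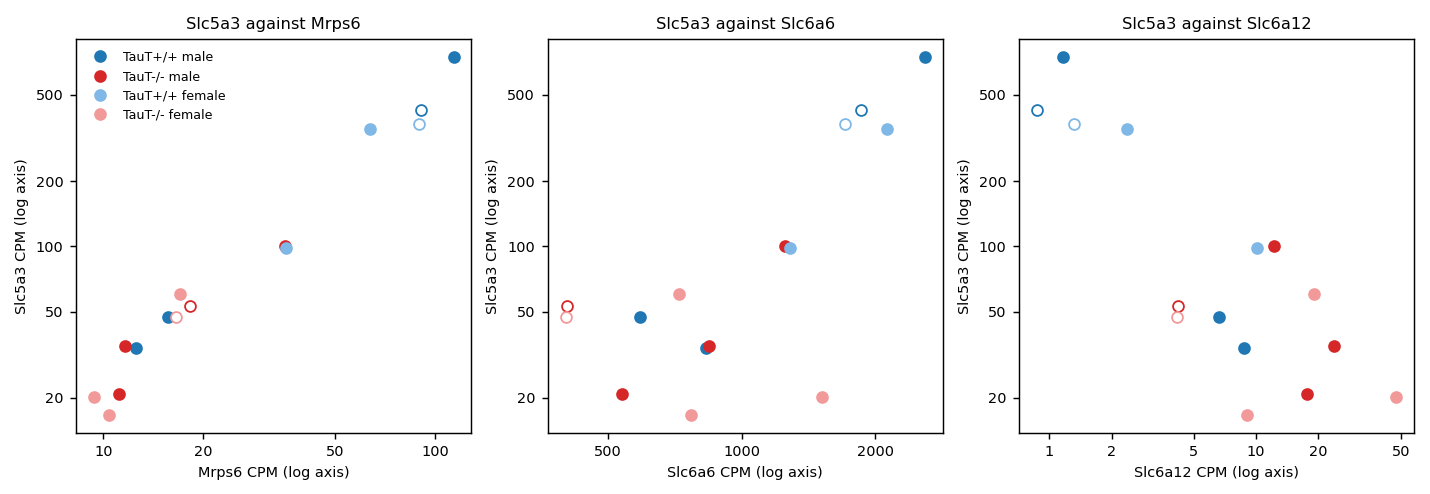
Slc5a3 CPM against Mrps6, Slc6a6 and Slc6a12 CPM (all axes log), with 1 point per library, blue for TauT+/+, red for TauT-/-, lighter for the female label and open for replicate 1. Slc5a3 and Mrps6 fall along a line over both genotypes, while TauT+/+ male 1, male 2, female 1 and female 2 stand apart at 1712 CPM of Slc6a6 or above in the middle panel and at 2.37 CPM of Slc6a12 or below in the right panel.

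Slc6a12 encodes BGT1, the sodium- and chloride-coupled carrier of betaine and GABA. The gene (ENSMUSG00000030109) lies at chr6:121320035-121342734 on the plus strand of GRCm39. In TauT+/+ it measured 0.87, 1.17, 8.69 and 6.64 CPM in male 1 to 4 and 1.32, 2.37 and 10.0 CPM in female 1 to 3. In TauT-/- it measured 4.19, 12.2, 17.7 and 23.7 CPM in male 1 to 4 and 4.14, 19.1, 9.03 and 47.7 CPM in female 1 to 4. The genotypes overlapped, but 5 of the 8 TauT-/- libraries lay above every TauT+/+ library. Its counts ran from 23 to 2081 reads per library.

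The mean of Slc6a12 was 4.44 ± 3.91 CPM (SD, n = 7) in TauT+/+ and 17.2 ± 14.2 CPM (n = 8) in TauT-/-, with a log2FC of 1.90 (SE 0.67, adjusted p = 0.113 by edgeR). This is 3.74-fold, and 2 SE to either side span 1.49-fold to 9.44-fold. DESeq2 called it higher (log2FC 1.93, adjusted p = 0.0254). limma's voom with library quality weights also called it (adjusted p = 0.0461), where 3.55% of genes were called higher. edgeR called it in none of the 15 fits that left out 1 library (log2FC 1.52 to 2.37), nor with 13 libraries (log2FC 1.91, adjusted p = 0.130). Under the male label the log2FC was 1.73 and under the female label it was 2.11.

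The gene next to it, Slc6a13, encodes the GABA and taurine carrier GAT2 and ends 3.9 kb upstream of the start of Slc6a12. It was named after its values were seen. Its level stayed low, at 0.01 to 0.32 CPM in TauT+/+ and 0.05 to 1.88 CPM in TauT-/-, with as few as 1 read in a library. The log2FC was 2.81 (SE 0.94), which was not called by edgeR (adjusted p = 0.104) and was called by DESeq2 (adjusted p = 0.0232).

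Most markers of macrophages had a higher mean in TauT-/-. The summed CPM of 14 macrophage markers ran from 1348 to 9347 (median 7919) in TauT+/+ and from 6409 to 19730 (median 14860) in TauT-/-. All 14 were tested, and 13 had a log2FC above 0 with a median of 0.89 over the list. Of the 14 edgeR called 1 higher (Cd68, log2FC 1.46, adjusted p = 0.0445), beside 0.546% of all genes. DESeq2 called 6 of the 14 higher, beside 5.53% of its tested genes. Of 11 stromal markers, 10 had a log2FC below 0, with a median of -0.68. None was called by edgeR and 2 were called lower by DESeq2 (Vcam1 and Pdgfra), beside 6.5% of its tested genes. The summed CPM of the 11 stromal markers ran from 26240 to 45950 in TauT+/+ and from 4427 to 37830 in TauT-/-. TauT-/- female 4, the highest library in Slc6a12, had the lowest stromal sum and the highest macrophage sum. TauT-/- male 3 had the highest stromal sum of the TauT-/- libraries (37830 CPM) and 17.7 CPM of Slc6a12, above every TauT+/+ library. With the mean log2 CPM of the macrophage markers as a covariate, the log2FC was -2.19 for Slc5a3 (adjusted p = 0.271) and 0.73 for Slc6a12 (adjusted p = 0.770). That fit called 0 of 17204 genes. At an unadjusted p under 0.05 it had 1974 of all genes and 2 of the 10 (Slc5a3 and Lrrc8e). The erythroid markers summed to at most 0.115 CPM in a library, and the endothelial markers to 6.79 to 18.9 CPM in TauT+/+ and 10.6 to 110 CPM in TauT-/-, where Pecam1 and Cdh5 averaged 1.16 and 0.37 CPM. Of 5 endothelial markers tested edgeR called none. Kdr averaged 2.90 CPM in TauT+/+ and 16.1 CPM in TauT-/- (log2FC 2.14, SE 0.52, adjusted p = 0.0561 by edgeR) and was called higher by DESeq2 (adjusted p = 0.000807), and Vwf averaged 7.91 and 21.6 CPM (log2FC 1.32, SE 0.57, adjusted p = 0.178 by edgeR). The part of other cells in the results was not tested further.

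Slc38a2 encodes SNAT2, a sodium-coupled carrier of small neutral amino acids that is induced in hypertonic medium and by amino acid shortage. The gene lies at chr15:96585266-96597894 on the minus strand of GRCm39. In TauT+/+ it measured 665, 801, 314 and 253 CPM in male 1 to 4 and 668, 358 and 272 CPM in female 1 to 3. The TauT-/- values were 541, 292, 339 and 403 CPM in male 1 to 4 and 554, 361, 338 and 351 CPM in female 1 to 4. The TauT-/- libraries lay inside the TauT+/+ range, with the near-identical male 1 and female 1 above the other 6. The log2FC was -0.25 (SE 0.27, adjusted p = 0.604), and 2 SE to either side span a TauT-/- to TauT+/+ fold of 0.58 to 1.23.

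Nfat5 encodes the tonicity-responsive factor itself and lies at chr8:108020102-108106149 on the plus strand of GRCm39. It was even across TauT+/+, with 154, 171, 154 and 145 CPM in male 1 to 4 and 136, 148 and 130 CPM in female 1 to 3. It spread further in TauT-/-, with 193, 142, 101 and 157 CPM in male 1 to 4 and 225, 130, 127 and 94.1 CPM in female 1 to 4. Of the TauT-/- libraries 2 lay above and 3 below the whole TauT+/+ range. The means were 148 ± 13.4 CPM (SD, n = 7) and 146 ± 44.6 CPM (n = 8), and the log2FC was -0.01 (SE 0.17, adjusted p = 0.981), with 2 SE to either side at a fold of 0.78 to 1.26. These are transcript levels, and NFAT5 is also controlled through its translation and its entry into the nucleus, which these data do not measure.

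The genes whose level was most like that of Nfat5 over 13 libraries were Dido1 (Spearman's correlation 0.912), Pak3 (0.896), Ighmbp2 (0.885), Pitpnb (0.879) and Huwe1 (0.879). Slc5a3 had a correlation of 0.418 with Nfat5, Slc6a12 of -0.538 and Slc6a6 of 0.044.

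A wider list of genes known or proposed to respond to tonicity was described in the same way. Of its 10 genes with a row in the table, 9 were tested, 7 had a log2FC above 0 and 2 below, with a median of 0.10, and none was called. Slc6a6 itself had the highest mean CPM, without correction for gene length. The next was Akr1b3, the aldose reductase that makes the osmolyte sorbitol, with 53.1 ± 7.93 CPM (SD, n = 7) in TauT+/+ and 56.7 ± 10.5 CPM (n = 8) in TauT-/- and a log2FC of 0.09 (SE 0.13, adjusted p = 0.709).

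Sgk1 encodes a serum- and glucocorticoid-induced kinase that is also induced by changes in cell volume and acts on ion channels and carriers. The gene lies at chr10:21758083-21875802 on the plus strand of GRCm39. In TauT+/+ it measured 109, 56.3, 168 and 85.9 CPM in male 1 to 4 and 108, 115 and 118 CPM in female 1 to 3. The TauT-/- libraries had 91.8, 111, 161 and 58.7 CPM in male 1 to 4 and 90.7, 135, 171 and 420 CPM in female 1 to 4. TauT-/- female 4 stood far above the other libraries, and the rest overlapped. The log2FC was 0.39 (SE 0.34, adjusted p = 0.510), and without TauT-/- female 4 it was 0.10.

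**Figure D3:**
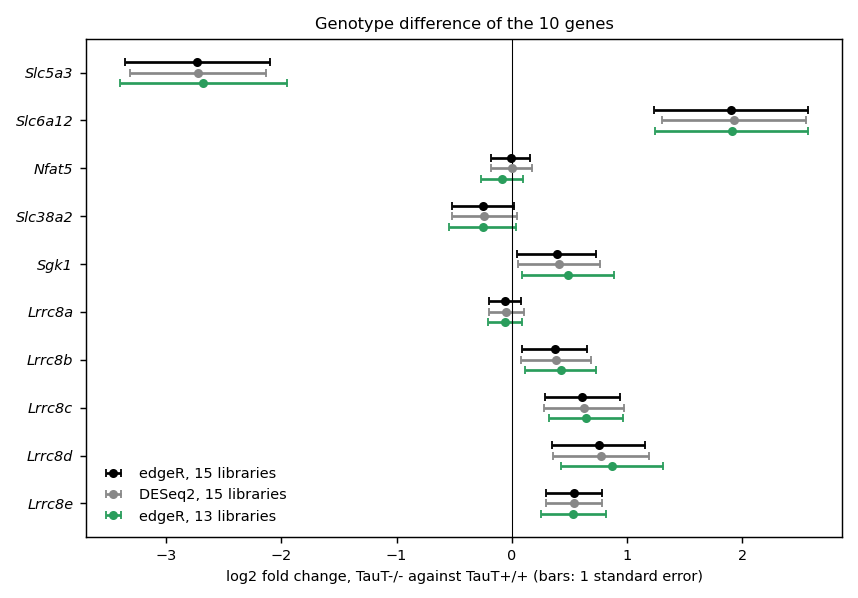
Log2FC of the 10 genes, TauT-/- against TauT+/+, with bars of 1 SE, by edgeR on 15 libraries (black), DESeq2 on 15 libraries (grey) and edgeR on 13 libraries (green). Slc5a3 stands at -2.73 and Slc6a12 at 1.90 by edgeR on 15 libraries, and the other 8 genes lie within 1 log2 unit of 0.

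The LRRC8 proteins assemble into hexameric anion channels. LRRC8A is the obligatory subunit, and the other subunits set what passes, with LRRC8D favouring the release of taurine and other uncharged osmolytes. Lrrc8a (chr2:30126944-30153827, plus strand, GRCm39) ran from 16 to 22.8 CPM (median 17.8) in TauT+/+ and from 12.5 to 22.3 CPM (median 17.8) in TauT-/-. Of the 8 TauT-/- libraries, 4 lay below every TauT+/+ library and 0 above. The log2FC of Lrrc8a was -0.06 (SE 0.14, adjusted p = 0.819), and 2 SE to either side span a fold of 0.79 to 1.16. Its counts are uncertain, since 2855 of its 7547 exon bases are shared with the predicted gene Gm28035 on the same strand. Those bases were left out of the length used for CPM per kb.

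Lrrc8b, Lrrc8c and Lrrc8d lie in a row on chromosome 5 (chr5:105563557-105637944, chr5:105666591-105760884 and chr5:105847798-105980302, all on the plus strand of GRCm39), 28.6 kb and 86.9 kb apart. All had log2FC above 0 and none was called. With the macrophage covariate the log2FC was -0.20 for Lrrc8b, 0.19 for Lrrc8c and -0.23 for Lrrc8d. In the same fit it was -0.11 for Lrrc8a and 0.79 for Lrrc8e. Lrrc8b, at 4.604 to 19.1 CPM (median 9.37) in TauT+/+ and 7.96 to 19.9 CPM (median 15.5) in TauT-/-, had a log2FC of 0.37 (SE 0.28, adjusted p = 0.447).

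Lrrc8c measured 20.1, 20.9, 82.0 and 29.3 CPM in TauT+/+ male 1 to 4 and 17.1, 30.7 and 23.7 CPM in female 1 to 3. In TauT-/- it measured 25.5, 55.3, 59.7 and 52.1 CPM in male 1 to 4 and 29.1, 37.7, 66.8 and 49.6 CPM in female 1 to 4. Its highest library was thus TauT+/+ male 3, while the other TauT+/+ libraries lay at 30.7 CPM or below. The log2FC was 0.61 (SE 0.33, adjusted p = 0.272). Without TauT+/+ male 3 it was 0.99 and was called (adjusted p = 0.0272), in a fit that called 2.98% of its genes higher. In the other 14 fits without 1 library it was not called.

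Lrrc8d, the subunit linked to taurine release, measured 28.0, 6.86, 56.7 and 23.5 CPM in TauT+/+ male 1 to 4 and 27.2, 31.8 and 40.7 CPM in female 1 to 3. The TauT-/- libraries measured 20.8, 39.0, 62.7 and 60.4 CPM in male 1 to 4 and 22.1, 51.2, 52.1 and 115 CPM in female 1 to 4. The lowest library was TauT+/+ male 2, which also had the lowest sum of macrophage markers (1348 CPM). The highest was TauT-/- female 4, which had the highest macrophage sum (19730 CPM), the highest endothelial sum (110 CPM) and the lowest stromal sum (4427 CPM). Between them the order was not always shared. TauT+/+ male 3 had 56.7 CPM of Lrrc8d with a macrophage sum of 8995 CPM, and TauT-/- female 2 had 51.2 CPM with 18480 CPM. The log2FC of Lrrc8d was 0.75 (SE 0.41, adjusted p = 0.277).

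Lrrc8e (chr8:4276827-4287816, plus strand, GRCm39) was the least abundant subunit, from 2.58 to 6.37 CPM (median 3.93) in TauT+/+ and from 3.74 to 10.98 CPM (median 5.77) in TauT-/-. Its log2FC was 0.54 (SE 0.24), with an adjusted p of 0.200. It was the third of the 10 genes, after Slc5a3 and Slc6a12, with an unadjusted p under 0.05. With the macrophage covariate the log2FC of Lrrc8e was 0.79 (SE 0.29, adjusted p = 0.323 by edgeR).

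As shares of the summed CPM per kb of the 5 subunits, Lrrc8a held 33.5% ± 8.33 (SD, n = 7) in TauT+/+ and 23.3% ± 3.97 (n = 8) in TauT-/-. The shares overlapped, from 18.7% in TauT+/+ male 3 to 44.0% in TauT+/+ male 2, and from 19.6% to 31.4% in TauT-/-. Lrrc8c held 28.1% ± 8.24 and 33.4% ± 4.32, and Lrrc8d held 16.9% ± 6.04 and 21.4% ± 7.24. Lrrc8b held 13.1% and 13.3%, and Lrrc8e held 8.36% and 8.68%. The summed level was 12.5 ± 4.15 CPM per kb in TauT+/+ and 16.7 ± 4.72 CPM per kb in TauT-/-. The shares depend on the exon lengths used and were not tested.

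**Figure D4:**
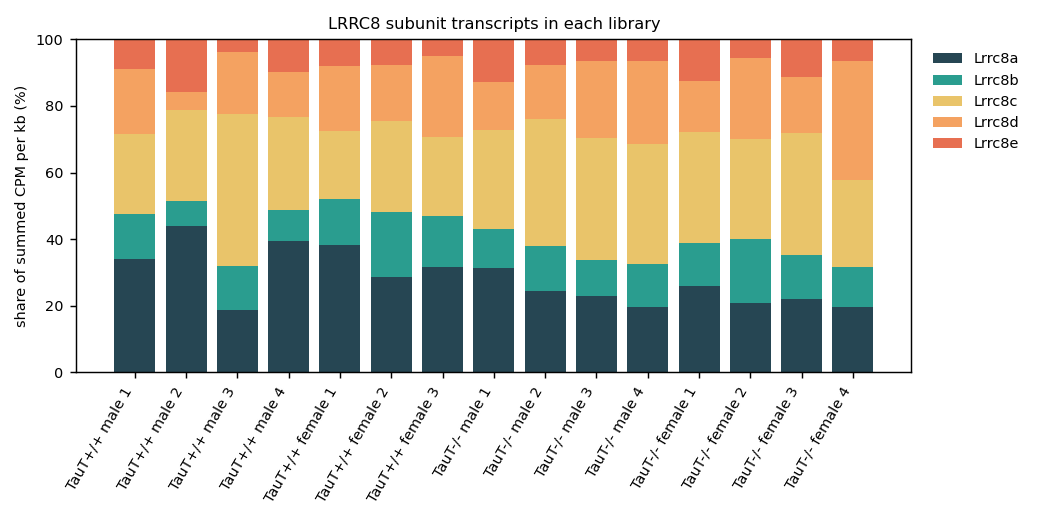
Share (%) of each LRRC8 subunit in the summed CPM per kb of the 5 subunits, with 1 stacked bar per library. Lrrc8a takes 18.7% to 44.0% in the TauT+/+ libraries and 19.6% to 31.4% in the TauT-/- libraries.

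Further genes of osmolyte transport and volume control were taken from 5 lists, which hold 45 genes with a row in the table. Of these 38 were tested, and edgeR called 0 of them, with 15 below 0 and 23 above 0 and a median log2FC of 0.08. At an unadjusted p under 0.05, 6 of the 38 passed, beside 23.6% of all genes. DESeq2 called Stk39, the kinase SPAK, lower (log2FC -0.48, adjusted p = 0.0308) and Slc6a13 higher. Over all its tested genes it called 6.5% lower and 5.53% higher. With voom, Slc6a6 was called lower (adjusted p = 0.0246), beside 4.12% of all genes.

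Among the other osmolyte and amino acid carriers, 6 of 8 were tested, 3 below and 3 above 0. Slc38a1, an amino acid carrier of the same family as Slc38a2, averaged 151 ± 84.5 CPM in TauT+/+ and 88.1 ± 30.9 CPM in TauT-/- (log2FC -0.76, SE 0.34, adjusted p = 0.197). The choline carrier Slc44a1 averaged 67.9 and 78.5 CPM (log2FC 0.20, SE 0.17, adjusted p = 0.501).

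Of the cation-chloride cotransporters and exchangers, 9 of 10 were tested, 4 below and 5 above 0, with a median log2FC of 0.03. The potassium-chloride cotransporters Slc12a4 and Slc12a7, which let salt out of swollen cells, had the highest mean CPM, without correction for gene length. Slc12a4 averaged 172 ± 10.3 and 166 ± 20.6 CPM (log2FC -0.05, SE 0.09, adjusted p = 0.798), and Slc12a7 averaged 144 ± 32.2 and 139 ± 40.4 CPM (log2FC -0.06, SE 0.19, adjusted p = 0.883). Of the WNK and SGK kinases, 7 of 9 were tested, 3 below and 4 above 0. Wnk1, a chloride-sensitive kinase, averaged 456 and 426 CPM (log2FC -0.08, adjusted p = 0.778), and Oxsr1, which WNK kinases activate, averaged 55.5 ± 4.36 and 77.1 ± 21.5 CPM (log2FC 0.46, SE 0.16, adjusted p = 0.115).

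Of the other volume-sensitive channels, 7 of 8 were tested, 3 below and 4 above 0. The mechanosensitive channel Piezo1 averaged 396 and 447 CPM (log2FC 0.18, SE 0.20, adjusted p = 0.607), and Ano6, a calcium-activated scramblase and channel, averaged 194 and 185 CPM (log2FC -0.07, SE 0.16, adjusted p = 0.838).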

How the data were processed

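Bulk RNA-sequencing was measured in 15 libraries made from amplified full-length cDNA. The authors filtered reads with fastp 0.23.1, mapped them with STAR 2.7.9a to GRCm39 with GENCODE M31 and counted them with featureCounts (Subread 2.0.1) under its reverse-strand setting. The deposited table holds raw whole-number counts for each gene and library. Whether the library kit marks strand is not given in the sources used here, and 6 of the 10 genes have exon bases shared with genes on the opposite strand (34 in Lrrc8b to 961 in Lrrc8a). Every column matched a sample by its name (0 without).

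The tests used edgeR 4.0.16 in R 4.3.3 (TMM, filterByExpr, quasi-likelihood, Benjamini-Hochberg). DESeq2 1.42.0 and voom of limma 3.58.1 were alternatives, with other filters, other normalization, a replicate block, a macrophage covariate and left-out libraries. The biological coefficient of variation was 0.482. Steps were tested on simulated data. Other statistics used Python 3.11.15 and SciPy 1.17.1. Exon lengths, without bases shared on the same strand, and positions came from GENCODE M39 on GRCm39. Promoters came from RefSeq on GRCm38.p6, where 10 of 10 genes matched.

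The genes and lists were chosen with earlier results of these data known. The genes named are the 10, the 2 with the highest mean CPM in each list and any called one. The 5 genes most correlated with Slc5a3 and with Nfat5 are named too. Others were named after their values were seen.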

Additional observations from a re-analysis of the deposited data

Results flagged for a closer look

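In groups of 4 libraries, 3 values of the 10 genes stood apart from the rest of their group by Dixon's test, which sets the gap to the nearest library against the group's range. Chance flags about 1 in 20 such groups, so that 1.5 of the 30 tested were to be expected. In TauT-/- female 1, Slc38a2 was high at 554 CPM with a gap of 0.865 of the range, and Lrrc8b was low at 9.06 CPM with a gap of 0.93. In TauT-/- male 1, Lrrc8c was low at 25.5 CPM with a gap of 0.838. Both libraries belong to the near-identical pair, so that the 3 values are not independent of each other.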

How the results depend on the processing

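Of 260 alternatives for single genes, 222 left the direction and the side of the threshold as reported, 17 lost a call, 3 gained one and 18 turned the direction. All 17 lost calls were of Slc5a3, the only one of the 10 genes with an edgeR call to lose. The total thus says little of how stable that call was. The count of the 10 genes called lower (1) was 0 without a filter on low counts, in both 13-library fits, in 12 libraries without those at odds with their sex label, and with the macrophage covariate, and it ranged from 0 to 1 when 1 library was left out. The count called higher (0) was 1 with DESeq2 and with voom, and ranged from 0 to 1 when 1 library was left out. Of the wider lists, DESeq2 called 1 gene lower (Stk39) and 1 higher (Slc6a13), beside 6.5% and 5.53% of its tested genes, and edgeR called 0. With voom 1 was called lower, the targeted gene Slc6a6. Under the female label DESeq2 called 1 of the 10 genes (edgeR 0). The direction turned only in values near 0 or with the macrophage covariate. Nfat5 had a log2FC of 0.0011 without the filter, 0.0108 with the replicate block and 0.19 with the covariate, and -0.112 to 0.0657 when 1 library was left out. Lrrc8a had 0.0109 in 13 libraries without the female-labelled replicate 1, and -0.121 to 0.0267 when 1 library was left out. With the covariate, Slc38a2 had 0.0161, Sgk1 -0.0856, Lrrc8b -0.20 and Lrrc8d -0.23. The cause was not tested. In 12 libraries Slc5a3 had a log2FC of -2.83 (adjusted p = 0.155 by edgeR). Whether equal replicate numbers pair the libraries was not settled, and the main test left any pairing out. The correlation of same-numbered libraries across genotypes ran from -0.04 to 0.622, and 11 of 14 libraries correlated best with their own number. With the replicate block the log2FC of Slc5a3 was -2.19 (adjusted p = 0.0436 by edgeR) and that of Slc6a12 was 1.86 (adjusted p = 0.0581), and 1 of the 10 genes was called lower and 0 higher. Depth limits the scarce genes, with as few as 23 reads for Slc6a12 and 56 for Lrrc8e in a library.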
